A study of Homo sapiens with 30 samples.

Results

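The replication-dependent histone genes supply the bulk of the histone protein that packages newly copied DNA. They were taken here as every protein-coding gene whose symbol in GENCODE release 44 runs from H1-1 to H1-5 or starts with H2AC, H2BC, H3C or H4C. The rule gave 69 symbols, of which 65 matched a line among the 60107 genes of the count table, and H2AC18, H2AC19, H3C2 and H3C3 were not analysed here. The 65 genes comprised 5 of the H1 linker family, 15 of H2A, 19 of H2B, 11 of H3 and 15 of H4. Of these, 52 lay in the histone cluster on the short arm of chromosome 6, 9 and 2 in separate groups on chromosome 1, and 1 each on chromosomes 12 and 21.

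Messenger RNA was measured in HepG2 cells, a line long in culture that came from a human liver tumour, in 30 libraries, in 10 groups of 3. Cells were transfected with an inhibitor control (IC) or an inhibitor of miR-200c-3p (I200c) and harvested after 6 h of treatment, or with mimics, namely that of miR-222-5p (M222), that of miR-512-3p (M512) and their control (MC), and harvested after 24 h. The treatment, begun 24 h after transfection, was sorafenib, a multikinase inhibitor given in advanced liver cancer, at 10 µM, or its solvent DMSO. All groups therefore carried an oligonucleotide and a transfection reagent, and time, type of oligonucleotide and control oligonucleotide change together between the 6 h and 24 h sets. The labels do not say whether replicates were separate cultures. The paper describes the sequencing experiments as 3 independent replicates, without saying what was repeated. The p-values measure the spread between these libraries, which may be in part technical.

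Histones form the spool on which DNA is wound: H2A, H2B, H3 and H4 make the core of the nucleosome and H1 binds the DNA that links nucleosomes. The replication-dependent genes are transcribed mainly in S phase, lack introns as a rule, and end their messenger RNA not in a poly(A) tail but in a short conserved stem-loop, which the stem-loop binding protein SLBP recognises and after which the U7 small nuclear RNP and its partners direct the cut. The libraries analysed here were QuantSeq 3′ FWD libraries, whose copying starts from oligo(dT), a primer that pairs with runs of A, so which of these genes were seen at all is the question that comes before any effect of sorafenib or of the oligonucleotides.

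The stem-loop was looked for in the 150 bases after each stop codon as 16 bases that start with GG, end with CC and hold a perfect stem of 6 base pairs around a loop of 4 bases beginning with TT, on the sense strand only. It was present in 59 of the 65 genes (90.769%) and in 6 of 19385 other protein-coding genes (0.031%), namely H3-7, H3-4, H1-6, H2AX, CDC40 and DLEU7. The 6 histone genes without a match were H2AC11, H2AC15, H2BC10, H2BC12L, H3C6 and H4C13, and an imperfect stem would have been missed. The stem itself split by family: all 14 H4 genes with a match had the stem GGCCCT, and all 45 matches in the other families had GGCTCT. The following are the stem-loops, in capitals, with the 11 bases after them, of the genes that lead the account below, read 5′ to 3′ on the coding strand of GRCh38.
H4C3, chr6:26104317-26104343, plus strand: GGCCCTTTTCAGGGCCgctcacaaagt
H4C5, chr6:26205001-26205027, plus strand: GGCCCTTTTCAGGGCCgcccacagttt
H1-2, chr6:26055733-26055759, minus strand: GGCTCTTTTCAGAGCCaccactgatct
H1-4, chr6:26157095-26157121, plus strand: GGCTCTTTTCAGAGCCacccaccgctc
H2AC6, chr6:26124669-26124695, plus strand: GGCTCTTTTCAGAGCCcccctaccgtt
H2AC20, chr1:149887391-149887417, plus strand: GGCTCTTTTTAGAGCCacccaagtttt
H2BC5, chr6:26158587-26158613, plus strand: GGCTCTTTTAAGAGCCacgcatgtttt
H3C10, chr6:27810516-27810542, plus strand: GGCTCTTTTCAGAGCCacccacatgcg

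Runs of A near the 3′ end were examined because the libraries start from oligo(dT), a description added after the levels had been seen. For each gene the window of 20 bases richest in A was taken from the 150 bases after the stop codon. The windows of H4C3, H2AC14, H1-2 and H4C5 are given with A in capitals. Among the histone genes with a count, H2AC14 was next richest after H4C3, level with H2AC20.
H4C3, chr6:26104291-26104310, plus strand: AAAAAAcAAAAAcAAAAAAA
H2AC14, chr6:27814324-27814343, minus strand: gAAAAgcgcAtAAAAAcAAA
H1-2, chr6:26055714-26055733, minus strand: tcAAtAAAAgAgctggAtAA
H4C5, chr6:26204961-26204980, plus strand: AccgcttAAAcgActcAgcA
H4C3 had 18 A among the 20 bases, in a stretch that ends shortly before its stem-loop. No other histone gene of the 65 had as many (1.538%), and 0.377% of the 19385 other protein-coding genes did. The median was 9 over the histone genes and 10 over the others. H2AC14 and H2AC20 had 13 each, H1-2 had 10 and H4C5 had 7. The poly(A) signal AATAAA lay within 1000 bases after the stop codon in 30 of the 65 histone genes (46.2%) and in 62.2% of the others. H1-2 held it 56 bases after the stop codon, past a stem-loop that starts at base 28, H4C3 held it at base 234, and H1-4 did not hold it in that window. Where reads lie within a gene was not analysed here, so none of these letters was tied to a read.

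Of the 65 genes, 48 had a count in at least 1 library and 10 had a count in all 30. The 17 with no count were H1-1, H2AC1, H2AC25, H2BC6, H2BC10, H2BC12L, H2BC26, H3C1, H3C7, H3C11, H3C14, H3C15, H4C1, H4C6, H4C7, H4C13 and H4C15. In any library 21 to 39 of the genes were seen. Totals per library were 3938764 to 9657063 counts, so that a count of 0 allows up to 0.311 to 0.762 CPM (counts in each 1000000), taking 3 counts as the limit and counting error alone. That limit does not hold for H2BC12L, H3C14, H3C15 and H4C15. Of the 65-base words of H2BC12L and H3C14, words of the length of a read, 98.3% and 99.1% also occur in transcripts of other genes, as do all those of H3C15 and H4C15, so that their reads may not have been assigned to them.

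The histone counts were concentrated in very few genes. In cultures measured in bulk, fewer cells in S phase and less histone RNA per cell cannot be told apart. H4C3 held 79.3% of the 267033 counts summed over all genes and libraries, H1-2 held 13.4% and H1-4 held 1.5%, which left the remaining 62 genes with the rest. Within single libraries H4C3 held 67.9% to 89.6% of the histone counts and ranked between 43 and 442 among all genes by count. H1-2 ranked between 344 and 4080. These are read counts not divided by length, since each transcript gives fragments near its 3′ end only. By family, H4 held 80.0% of the counts, H1 15.0%, H2A 2.74%, H2B 1.63% and H3 0.586%, so the families that sit together in every nucleosome were not seen in equal measure. An AATAAA within 1000 bases of the stop codon was present in genes holding 96.2% of the histone counts, a share made almost wholly by H4C3 and H1-2. Without it, 23 of 35 genes still had a count, against 25 of 30 with it.

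**Figure D1:**
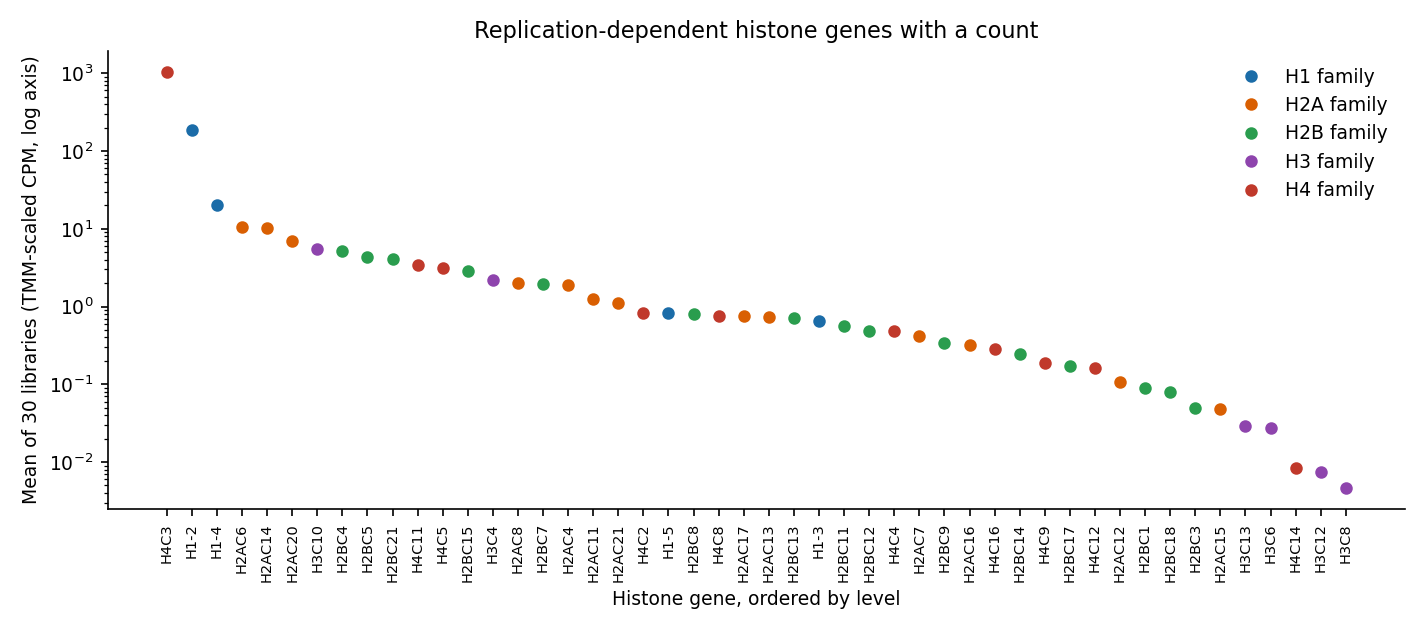
Mean level over the 30 libraries, in TMM-scaled CPM on a log axis, of each of the 48 replication-dependent histone genes with a count, ordered by level and coloured by family. H4C3 stands at 1051, H1-2 at 184 and H1-4 at 20.3, and the remaining 45 lie at 10.5 or below.

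After these 3 genes came H2AC6 (10.5 TMM-scaled CPM as the mean of 30 libraries), H2AC14 (10.2), H2AC20 (6.95), H3C10 (5.57), H2BC4 (5.21), H2BC5 (4.36) and H2BC21 (4.09). TMM scaling is the edgeR correction for differences in library composition. Genes with long and with short annotated 3′ ends were both seen: 12 of the 17 annotated to more than 300 bases past the stop codon had a count, as had 36 of the 48 annotated to at most 300 bases. The longer class held 2.55% of the counts. Assignment of reads was uncertain for some genes, since 13 of the 65 shared over 50% of their 65-base words with transcripts of other genes. They included the 4 named above with no count, H2AC14 (65.0%) and H3C4 (96.4%), while H4C3, H1-2, H1-3, H1-4, H2AC6, H2AC11, H3C10 and H4C5 shared none and H2AC20 shared 19.8%. H4C3 lies on the opposite strand within the long annotated span of H2BC4, and how strand was handled in counting is not given in the sources used here, so the reads of these 2 genes cannot be told apart with certainty.

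Liver markers were present in every library, with ALB at 2348 to 5106 and APOB at 1420 to 5929 TMM-scaled CPM, and of 8 markers of other cell types VWF and COL1A2 had no count and PTPRC and VIM had a median of 0. The other 4 were seen, PECAM1 at up to 3.02, CD68 at 0.447 to 11.1, COL1A1 at up to 11.6 and ACTA2, a smooth muscle actin, at 27.2 to 114 CPM. ACTA2 was lower in M512 than in MC with DMSO (log2 fold change -1.27, edgeR adjusted p = 0.00243) and with sorafenib (-1.01, adjusted p = 0.0228), and higher in MC_DMSO than in IC_DMSO (1.01, adjusted p = 0.0345), and its part in the histone values was not tested. In M512 with sorafenib 4 of 10 liver markers fell, where 4.62% of all genes did, and in M222 with sorafenib 2 of 10, where 4.38% of all genes were called in either direction. Libraries differed in RNAs that also lack a poly(A) tail. A list of 33 such RNAs, 20 of them with a count, was in effect RNU4ATAC, a small nuclear RNA of the minor spliceosome, which held 92.8% of its counts, so RNU4ATAC and the other RNAs of the list are given apart. M512_sorafenib replicate 3 stood apart, with RNU4ATAC at 6.18 CPM against 529 and 785 in the other replicates of its group.

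H4C3 moved with RNU4ATAC among replicates of the same group. In each of the 10 groups the library lowest in RNU4ATAC was also the lowest in H4C3, and the full order of the 3 replicates was the same in 7 groups. The lowest library was shared in 8 groups for H2AC14, in 7 for H1-4, in 4 for H1-2 and in 1 for H2AC6, and in 6 for the sum of the 62 less abundant genes. Against the other RNAs of the list, the lowest library was shared in 5 groups for H4C3. In M512 with sorafenib, H4C3 was at 2096, 1399 and 287 CPM in replicates 1, 2 and 3, and in M512 with DMSO at 900.2, 1168 and 555 CPM, with RNU4ATAC there at 305, 255 and 60.3 CPM. The 3 replicates with sorafenib thus spanned the 3 with DMSO on both sides. What part the RNU4ATAC level of a library has in the H4C3 level was not tested. How often genes outside the histone genes share their lowest library with RNU4ATAC was not examined.

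Sorafenib against DMSO was compared within each transfection. For H4C3 the groups overlapped in all 5, and on TMM-scaled counts its log2 fold change was 0.34 in IC (SE 0.35, edgeR, Benjamini-Hochberg adjusted p = 0.999), 0.47 in I200c (SE 0.35, adjusted p = 0.561), 0.05 in MC (SE 0.45, adjusted p = 0.974), -0.47 in M222 (SE 0.45, adjusted p = 0.623) and 0.76 in M512 (SE 0.45, adjusted p = 0.326). The value in M512 turned on 1 library: without M512_sorafenib replicate 3 it was 1.23 (adjusted p = 0.0234).

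The 62 less abundant genes, summed in each library, separated the treatments where H4C3 did not. This sum takes in every gene other than H4C3, H1-2 and H1-4, whether or not it passed a filter, was chosen after the levels had been seen, and is given with no test. In IC it was 67.1, 73.3 and 38.3 CPM with DMSO and 94.3, 87.4 and 80.3 CPM with sorafenib. In I200c it was 59.0, 63.6 and 48.9 CPM with DMSO and 115, 121 and 69.1 CPM with sorafenib. Every library with sorafenib was above every library with DMSO in both inhibitor transfections after 6 h, with ratios of the means of 1.47 and 1.78. In MC the sum was 64.7, 60.9 and 67.3 CPM with DMSO and 84.6, 69.8 and 82.2 CPM with sorafenib, a ratio of 1.23 with no overlap. In M512 it was 39.3, 46.3 and 41.1 CPM with DMSO and 104, 120.3 and 85.8 CPM with sorafenib, a ratio of 2.45 with no overlap. The mean of M512 with DMSO, 42.2 CPM, was the lowest mean with DMSO of any transfection. In M222 the groups overlapped, at 104, 71.7 and 61.5 CPM with DMSO and 89.6, 75.3 and 94.4 CPM with sorafenib, a ratio of 1.09. The overlap rested on M222_DMSO replicate 1, since the other M222 libraries with DMSO were below all those with sorafenib. When 1 library was left out at a time, the log2 ratio in M222 lay between -0.027 and 0.376. That of MC then lay between 0.242 and 0.376. Whether the ratio in M222 differs from those of the other transfections was not tested. M512_sorafenib replicate 3, the library lowest in H4C3, was at 85.8 CPM in this sum, above all 3 M512 libraries with DMSO.

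**Figure D2:**
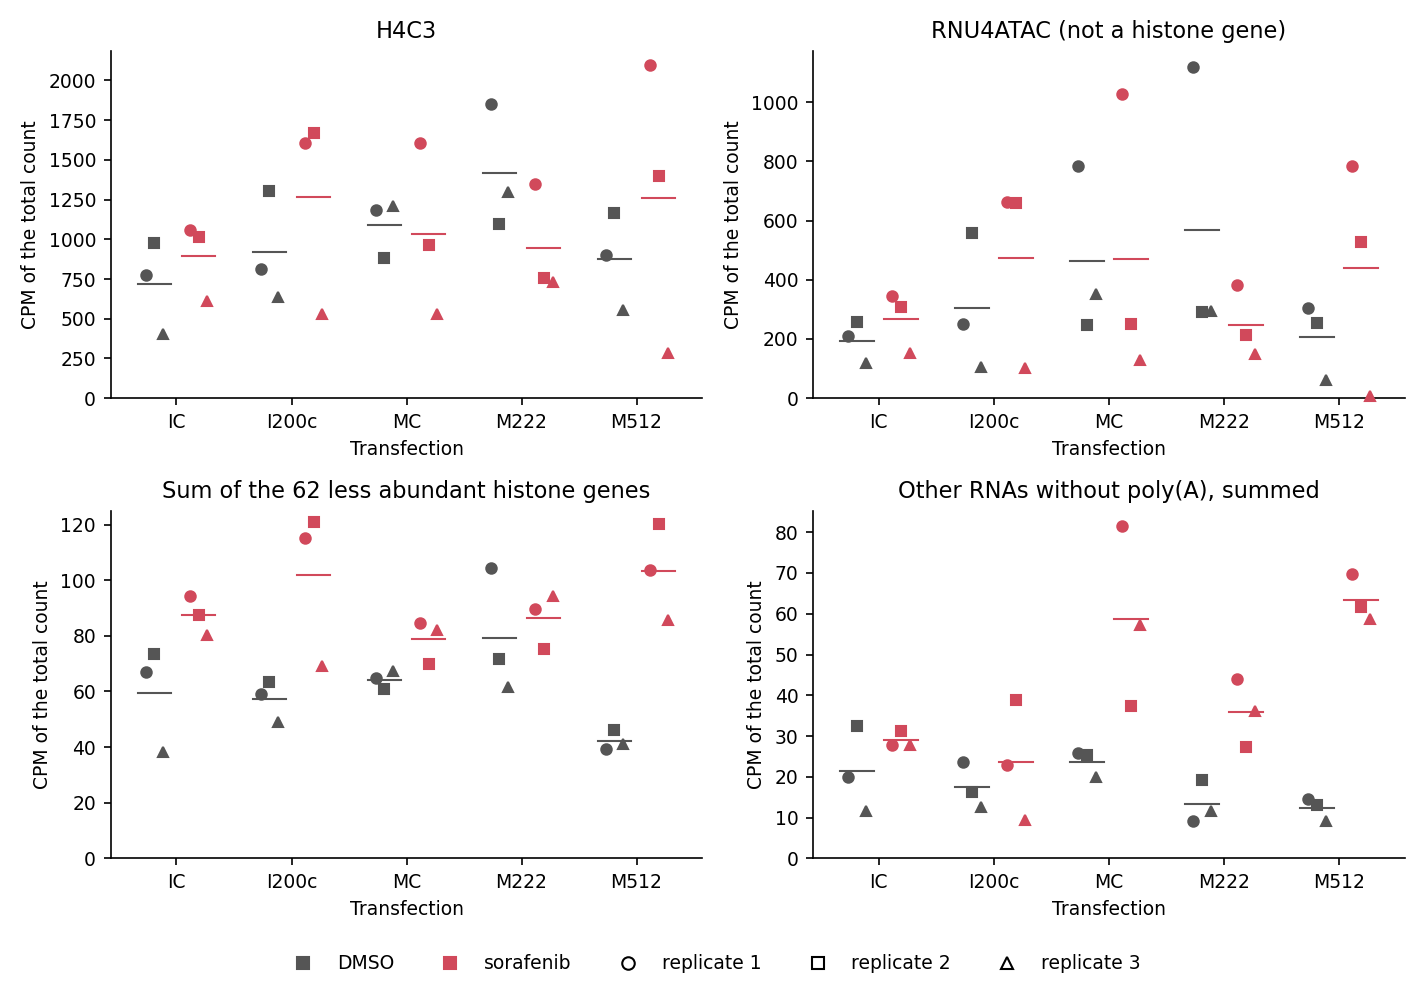
CPM of the total count in each library for H4C3, for RNU4ATAC, for the sum of the 62 less abundant histone genes and for the other RNAs without poly(A), by transfection, with DMSO in grey and sorafenib in red, a symbol per replicate and a line at the group mean. H4C3 and RNU4ATAC overlap between treatments in every transfection, while the sum of the less abundant genes does so only in M222. That overlap rests on M222_DMSO replicate 1.

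Other measures moved beside this sum. The RNAs without poly(A) other than RNU4ATAC were higher with sorafenib without overlap in MC, M222 and M512, from 9.19 to 14.6 CPM with DMSO to 58.8 to 69.8 CPM with sorafenib in M512, and their groups overlapped in IC and I200c. Of this list RNU5B-1, a small nuclear RNA of the major spliceosome, rose in MC, M222 and M512, RNU5A-1 in MC and M512 and RNU5F-1 in M512, with none called in IC or I200c. With DMSO, RNU5F-1 was itself lower in M512 than in MC, at means of 0.635 and 5.23 TMM-scaled CPM (log2 fold change -3.03, edgeR adjusted p = 0.0282). RNU4ATAC overlapped between treatments in all 5 transfections. The part of either in the histone sum was not tested. By family, the sum of the less abundant H2A genes in M512 was 18.01 ± 2.19 CPM with DMSO and 44.5 ± 8.92 CPM with sorafenib (mean ± SD, n = 3), and that of the H3 genes was 2.85 ± 0.855 and 11.1 ± 1.97 CPM, each without overlap. The H1 genes left after H1-2 and H1-4 had lower means with sorafenib in all 3 transfections of 24 h, with overlap. The means were 0.866 against 0.135 CPM in MC, 1.97 against 0.736 CPM in M222 and 0.549 against 0.0778 CPM in M512, with DMSO given before sorafenib. These sums rest on few counts, near or under the limit of a count of 0 in MC and M512. H1-5 had 7 counts with DMSO and 0 with sorafenib in MC, 39 and 8 in M222 and 11 and 2 in M512. In M222 with DMSO, H1-5 was at 3.58, 1.11 and 0 TMM-scaled CPM. At 6 h the H1 genes left were higher with sorafenib without overlap, at 1.29 against 4.68 CPM in IC and 0.348 against 4.34 CPM in I200c. Since H1-1 had no count, these sums are those of H1-3 and H1-5. H1-3 had no count with DMSO at 6 h and means of 2.765 and 2.91 TMM-scaled CPM with sorafenib in IC and I200c. H1-5 overlapped between treatments in both. The less abundant H4 genes were the family that separated in all 3 transfections of 24 h: the mean was 3.13 ± 1.82 CPM with DMSO and 14.4 ± 7.25 CPM with sorafenib in MC, 6.3 ± 1.51 and 16.01 ± 3.68 CPM in M222, and 3.63 ± 0.606 and 15.4 ± 2.33 CPM in M512. Over all libraries H4C11 (718 counts) and H4C5 (617) led these genes. Assignment of reads to H4C11 is uncertain, since 91.7% of its 65-base words are shared with other transcripts.

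Single genes were tested with edgeR on all genes that passed its filter on low counts. The filter kept 22 of the 65 histone genes at 6 h and 24 at 24 h, of which 12 and 13 had a count in every library of the set. A gene can pass through a single group in which it is high, so the counts that follow describe the genes that passed and not the whole family. Above 0 were 19 of 22 log2 fold changes in IC (median 0.59), 20 of 22 in I200c (median 1.1), 17 of 24 in MC (median 0.57), 12 of 24 in M222 (median 0.03) and 23 of 24 in M512 (median 1.2). Over all genes tested, 47.74% to 50.54% were above 0, with medians between -0.03 and 0.00. The medians of the histone genes depended on single libraries: that of IC was 0.23 without IC_DMSO replicate 3, that of I200c 0.52 without I200c_sorafenib replicate 1, and that of MC 0.17 without MC_sorafenib replicate 1 and 0.33 without MC_DMSO replicate 3. Without the filter, 25 of 46 were above 0 in MC with a median of 0.11, and 36 of 46 in M512 with a median of 1.22. In M222 the median lay between -0.22 and 0.13 and in M512 between 1.2 and 1.59 over the fits that left out 1 library or none. The groups did not overlap, with sorafenib higher, for 6 of 22 histone genes in IC (6.1% of all genes), 7 of 22 in I200c (8.4%), 7 of 24 in MC (13.0%), 3 of 24 in M222 (13.6%) and 8 of 24 in M512 (13.5%). With sorafenib lower this held for 1 histone gene in IC (6.7% of all genes), 1 in I200c (8.84%) and none in the 3 transfections of 24 h (11.9%, 13.1% and 16.5%).

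**Figure D3:**
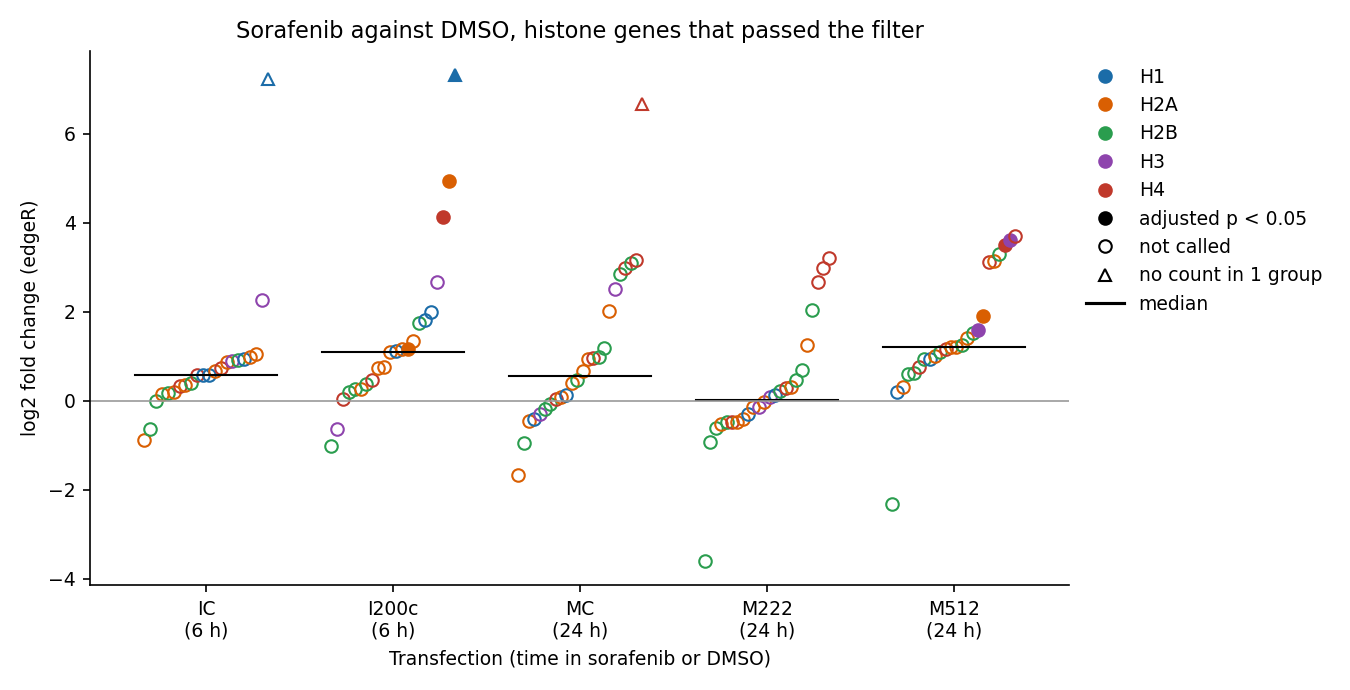
Log2 fold change of sorafenib against DMSO from edgeR for the histone genes that passed the filter, by transfection, with filled symbols for adjusted p under 0.05, triangles where a group had no count (their fitted value depends on the prior count) and a black line at the median. The points lie mostly above 0 in IC, I200c and M512 and on both sides of it in M222.

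In I200c, 4 of the 22 histone genes tested rose with sorafenib and none fell, where 2.28% of all genes were called, 0.911% higher and 1.37% lower. They were a linker histone, a pair of H2A genes and an H4 gene. H1-3, a linker histone gene, had no count in any of the 3 libraries with DMSO and was at 2.66, 5.33 and 0.743 TMM-scaled CPM with sorafenib, at least 7.31-fold higher with 3 counts per library as the limit (edgeR adjusted p = 0.0130). The same gene had no count in IC with DMSO and was at 2.31, 2.98 and 3.00 CPM in IC with sorafenib, at least 4.03-fold higher, a difference that did not pass after adjustment (adjusted p = 0.188). At 24 h H1-3 had 6, 2, 4 and 4 counts in the groups of MC and M222 and none in M512. Its counts were thus almost all in the libraries with sorafenib at 6 h, and it passed the 6 h filter through these alone. Its fold change and p in I200c are therefore a description and no support for a rise. H4C5 and H2AC11, also called in I200c, were low in most 6 h libraries with DMSO. They too passed the 6 h filter only with libraries given sorafenib. Their fold changes and p in I200c are likewise a description and no support for a rise.

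H4C5, which encodes histone H4, was at 0.615, 0.128 and 0 CPM in I200c with DMSO and at 2.66, 6.37 and 3.84 CPM with sorafenib (log2 fold change 4.13, SE 0.99, edgeR adjusted p = 0.0285). H2AC6, the most abundant of the H2A genes, was at 6.77, 4.99 and 10.3 CPM with DMSO and at 16.3, 17.2 and 16.4 CPM with sorafenib (log2 fold change 1.17, SE 0.30, adjusted p = 0.0423). H2AC11, another H2A gene, had 1 count in the 3 libraries with DMSO and 52 with sorafenib (edgeR adjusted p = 0.0332). The ratio was 45.3, with a 95% counting interval of 7.79 to 1825 that leaves out spread between libraries. In IC, H2AC11 had 16 counts with DMSO, at 1.20, 1.65 and 0.751 CPM. With sorafenib in IC it was at 0.712, 0.993 and 2.43 CPM, with overlap. H4C5, H2AC6 and H2AC11 did not overlap between treatments in I200c. The calls in I200c were few and depended on single libraries: 2 histone genes were called without I200c_DMSO replicate 1, 2 without replicate 2, 3 without replicate 3, 1 without I200c_sorafenib replicate 1, 0 without replicate 2 and 4 without replicate 3. H1-3 was called in all of these fits but that without I200c_sorafenib replicate 2 (adjusted p = 0.0619).

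H1-2 and H1-4, the linker histone genes with the most counts, also had higher means with sorafenib at 6 h without passing. H1-2 was at 84.0, 158 and 128 CPM in I200c with DMSO and at 282, 357 and 158 CPM with sorafenib, just without overlap (log2 fold change 1.11, SE 0.37, edgeR adjusted p = 0.128). H1-4 was at 7.84, 20.6 and 4.3 CPM with DMSO and at 61.1, 39.1 and 14.4 CPM with sorafenib, with overlap (log2 fold change 1.81, SE 0.57, adjusted p = 0.110). In IC, H1-2 was at 217, 248 and 72.1 CPM with DMSO and 358, 302 and 148 CPM with sorafenib (log2 fold change 0.59, SE 0.37, adjusted p = 0.999). At 24 h the log2 fold change of H1-2 was -0.40 in MC, -0.29 in M222 and 0.21 in M512, none of which passed.

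In M512, 4 of the 24 histone genes tested rose with sorafenib and none fell, where 9.96% of all genes were called, 5.34% higher and 4.62% lower. They were an H2A gene, a pair of H3 genes and H4C5. H2AC20 was at 4.13, 4.04 and 0.833 CPM with DMSO and at 7.74, 18.6 and 7.74 CPM with sorafenib (log2 fold change 1.91, SE 0.54, edgeR adjusted p = 0.0236). H4C5 was at 0.364, 0 and 1.80 CPM with DMSO and at 11.99, 9.60 and 3.69 CPM with sorafenib (log2 fold change 3.50, SE 1.03, adjusted p = 0.0313). Both were higher in each library with sorafenib than in any with DMSO.

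H3C10, which encodes the canonical histone H3, was at 2.55, 2.10 and 1.94 CPM with DMSO and at 7.74, 5.18 and 7.14 CPM with sorafenib in M512 (log2 fold change 1.60, SE 0.49, edgeR adjusted p = 0.0373). H3C4, another H3 gene, was at 0.728, 0 and 0.555 CPM with DMSO and at 6.96, 7.10 and 2.62 CPM with sorafenib (log2 fold change 3.61, SE 1.12, adjusted p = 0.0410), although 96.4% of its 65-base words are shared with other transcripts. Neither overlapped between treatments. H3C4 passed the 24 h filter only with libraries given sorafenib, so its fold change and p are a description and no support for a rise. The number of histone genes called in M512 was 1 without M512_DMSO replicate 1, 1 without replicate 2, 2 without replicate 3, 1 without M512_sorafenib replicate 1, 1 without replicate 2 and 5 without replicate 3, and it was 1 (H4C5) without both replicates 3, the M512 libraries lowest in RNU4ATAC.

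**Figure D4:**
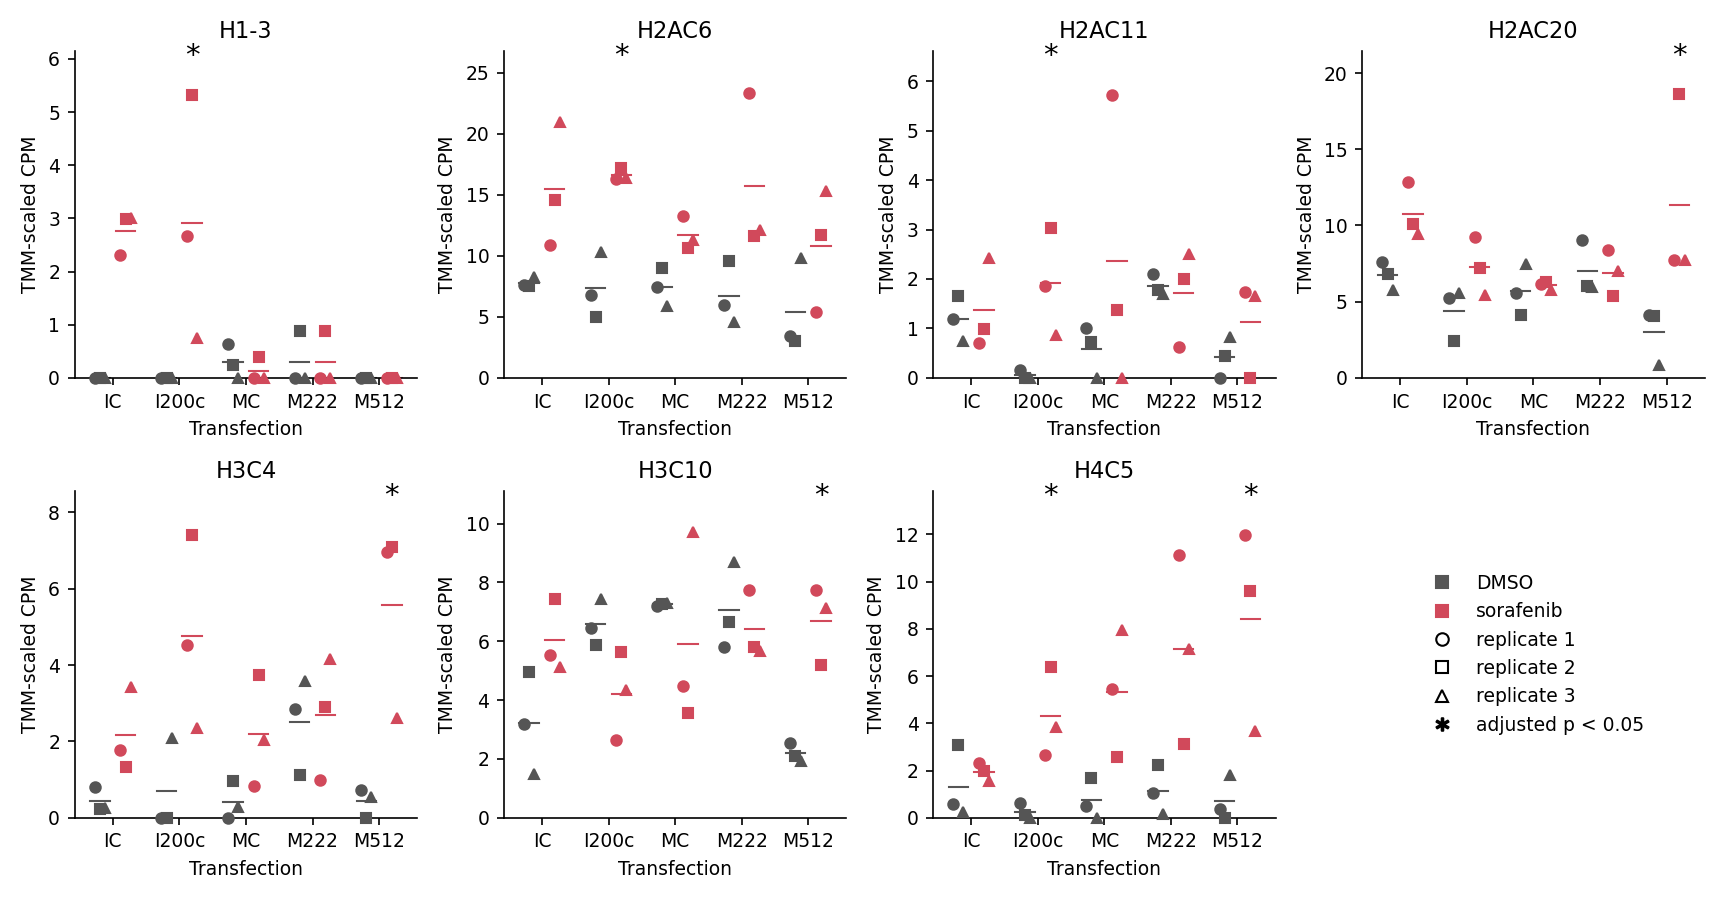
TMM-scaled CPM in each library of the 7 histone genes called in I200c or M512, by transfection, with DMSO in grey, sorafenib in red, a symbol per replicate, a line at the group mean and an asterisk over a called difference. H4C5 lies higher with sorafenib without overlap in I200c, MC, M222 and M512, and H2AC6 in IC, I200c, MC and M222.

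In IC, MC and M222 no histone gene was called with sorafenib by edgeR, where 0.0393%, 2.6% and 4.38% of all genes were. At an unadjusted p under 0.05 there were 2 histone genes in IC, 3 in MC, 2 in M222, 8 in I200c and 9 in M512. The share of all genes at that threshold was not examined, so these counts show nothing particular to the histone genes. DESeq2 called 0, 1 and 0 in IC, MC and M222. The gene that DESeq2 called in MC was H4C5 (adjusted p = 0.0402). H4C5 was at 0.504, 1.70 and 0 CPM with DMSO and 5.45, 2.57 and 7.96 CPM with sorafenib in MC (log2 fold change 2.99, SE 1.06, edgeR adjusted p = 0.129), and at 1.05, 2.22 and 0.170 CPM with DMSO and 11.1, 3.12 and 7.16 CPM with sorafenib in M222 (log2 fold change 2.67, SE 1.00, adjusted p = 0.134). The groups did not overlap in either. In IC the H4C5 groups overlapped, at 0.601, 3.07 and 0.250 CPM with DMSO and 2.31, 1.99 and 1.57 CPM with sorafenib.

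H2AC6 was followed across all transfections, since it was called in I200c alone. It was at 7.61, 7.55 and 8.26 CPM with DMSO and 10.9, 14.6 and 21.0 CPM with sorafenib in IC (log2 fold change 0.99, SE 0.31, edgeR adjusted p = 0.598). In MC it was at 7.43, 8.98 and 5.88 CPM with DMSO and 13.3, 10.7 and 11.3 CPM with sorafenib (log2 fold change 0.67, SE 0.48, adjusted p = 0.506). In M222 it was at 6.00, 9.56 and 4.59 CPM with DMSO and 23.3, 11.6 and 12.2 CPM with sorafenib (log2 fold change 1.24, SE 0.48, adjusted p = 0.147), and its log2 fold change in M512, where the groups overlapped, was 1.01 (SE 0.48, adjusted p = 0.196). The libraries with sorafenib were thus above all those with DMSO in 4 of 5 transfections, and the difference passed in I200c alone.

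The remaining abundant genes did not pass in any transfection. H2BC4, H2BC5 and H2BC21 encode histone H2B and were between 0.125 and 12.5 CPM in all libraries. In M512 their log2 fold changes were 1.09 (SE 0.55), 1.25 (SE 0.65) and 1.52 (SE 0.78), with adjusted p of 0.228, 0.249 and 0.243 (edgeR), and H2BC5 and H2BC21 did not overlap. In M222 that of H2BC5 was -0.93 (SE 0.66, adjusted p = 0.475). H2AC14, whose reads are uncertain, had 1.21 in M512 (SE 0.53, adjusted p = 0.154) and -0.53 in M222 (SE 0.52, adjusted p = 0.630).

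Whether the oligonucleotides themselves moved the histone genes was asked against the control oligonucleotide of the same time. No histone gene was called by edgeR in any of these 6 comparisons. For I200c against IC in DMSO 0.0157% of all genes were called, and 0.0% were in sorafenib. For M222 against MC the share was 0.0% in DMSO and 0.0% in sorafenib, and for M512 against MC it was 0.634% in DMSO and 0.355% in sorafenib. At an unadjusted p under 0.05 there were 3 histone genes for I200c in DMSO, 0 in sorafenib, 1 for M222 in DMSO, 0 in sorafenib, 1 for M512 in DMSO and 2 in sorafenib. The share of all genes at that threshold was not examined here either. DESeq2 called 1, H3C10, for M512 in DMSO. H3C10 was at 7.18, 7.28 and 7.31 CPM in MC with DMSO and at 2.55, 2.10 and 1.94 CPM in M512 with DMSO (log2 fold change -1.71, SE 0.49, edgeR adjusted p = 0.128, DESeq2 adjusted p = 0.0257). The groups did not overlap, and with sorafenib H3C10 was at 4.47, 3.55 and 9.70 CPM in MC and 7.74, 5.18 and 7.14 CPM in M512, which did.

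Of the 24 histone genes tested at 24 h, 20 were above 0 for M222 against MC in DMSO and 13 in sorafenib, and 9 for M512 against MC in DMSO and 16 in sorafenib. Of the 22 tested at 6 h, 11 were above 0 for I200c against IC in DMSO and 15 in sorafenib. Over all genes tested, 48.22% to 51.39% were above 0 in these comparisons. For M222 in DMSO, 2 of the 24 histone genes were higher without overlap (5.05% of all genes) and 0 lower (7.45%). The median was 0.62 for M222 in DMSO, but 0.33 without M222_DMSO replicate 1 and 0.36 without MC_DMSO replicate 1. These comparisons share their control libraries within a time. The difference of the sorafenib effect between an oligonucleotide and its control, tested as an interaction, was called for no histone gene, where 0.0% of all genes were called for I200c, 0.0% for M222 and 0.00755% for M512. At an unadjusted p under 0.05 there were 4, 0 and 4 histone genes, with the share of all genes at that threshold not examined, and DESeq2 called none. The difference between the calls in I200c and M512 and their absence in IC, MC and M222 was therefore not shown by this test. H2AC11 in I200c had an interaction of 4.73 (SE 1.53, edgeR adjusted p = 0.9997) and H3C10 in M512 1.89 (SE 0.67, adjusted p = 0.871).

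Between the controls, MC_DMSO against IC_DMSO, where time and control oligonucleotide cannot be told apart, 18 histone genes were tested and none was called by edgeR (0.528% of all genes) or DESeq2. With the share of all genes not examined, 1 histone gene was at an unadjusted p under 0.05. That gene was H3C10, at 7.59 ± 0.184 CPM in MC_DMSO and 3.17 ± 1.70 CPM in IC_DMSO on the scale of that fit (SD, n = 3, log2 fold change 1.25, SE 0.49, edgeR adjusted p = 0.219).

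Genes around the histone genes were examined as lists of replication, of histone gene transcription and 3′ processing, of chaperones and of replication-independent histones. Their counts stand beside 0.0393% of all genes called with sorafenib in IC, 2.28% in I200c, 2.6% in MC, 4.38% in M222 and 9.96% in M512. None of 35 DNA replication genes rose with sorafenib in any transfection, and those that fell were GINS1 in M222 and UHRF1, GINS1 and MCM3 in M512. GINS1 and MCM3 belong to the replicative helicase, and UHRF1 helps to copy DNA methylation. Their log2 fold changes in M512 were -1.20 (SE 0.27, edgeR adjusted p = 0.00522), -0.75 (SE 0.23, adjusted p = 0.0389) and -1.91 (SE 0.40, adjusted p = 0.00290) for GINS1, MCM3 and UHRF1. Summed, the 35 genes were at 3013, 3142 and 3343 CPM in M512 with DMSO and 2271, 2219 and 2493 CPM with sorafenib, without overlap, where the sum of the 62 less abundant histone genes was higher.

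Of 27 genes of histone gene transcription and 3′ processing, 1 rose in MC and 2 in M222, and 2 rose and 2 fell in M512, with none called in IC or I200c. NPAT, the coactivator of histone gene transcription, was at 21.2, 23.8 and 27.1 CPM in M512 with DMSO and at 10.6, 7.29 and 8.69 CPM with sorafenib (log2 fold change -1.44, SE 0.36, edgeR adjusted p = 0.0114). CASP8AP2, also called FLASH, which acts with U7 in cutting histone transcripts, fell by 1.33 on the log2 scale (SE 0.42, adjusted p = 0.0463). FIP1L1 and WDR33, subunits of the factor that reads the poly(A) signal, rose by 1.29 (SE 0.25, adjusted p = 0.00145) and 0.62 (SE 0.19, adjusted p = 0.0338). Both also rose in M222, by 1.13 and 0.84, and WDR33 in MC, by 0.69. SLBP was at 53.7, 45.4 and 71.5 CPM with DMSO and at 46.8, 26.1 and 77.2 CPM with sorafenib in M512 (log2 fold change -0.18, SE 0.30, adjusted p = 0.773) and was not called in any transfection.

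Of 21 histone chaperone genes, CHAF1A fell in M222, ASF1B and RBBP7 fell in M512 and SUPT6H rose in M512, with none called elsewhere. ASF1B, which carries H3 and H4 to newly copied DNA, had a log2 fold change of -1.13 (SE 0.29, edgeR adjusted p = 0.0145). Among replication-independent histone genes, whose messenger RNAs carry a poly(A) tail in most cases, H3-3B rose in all 3 transfections of 24 h and H2AZ2 in M512, while H2AX fell in I200c (log2 fold change -0.92, SE 0.19, adjusted p = 0.0136). H3-3B, which encodes the H3.3 variant, was at 783, 806 and 976 CPM in M512 with DMSO and at 1729, 1440 and 1598 CPM with sorafenib (log2 fold change 0.89, SE 0.18, adjusted p = 0.00254). H2AZ1, which encodes the H2A.Z variant, was not called in any transfection (-0.36 in M512, SE 0.18, adjusted p = 0.218). CHAF1A and H2AX were named after their values had been seen.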

How the data were processed

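Libraries were made from total RNA with the QuantSeq 3′ FWD kit and read for 65 cycles. Per the labels and the study's methods, the authors trimmed reads, aligned them with STAR to GRCh38 and obtained gene counts from HTSeq-count. The annotation release, strand setting and any molecular identifiers are not given in the sources used here. The deposited raw counts were used, and a second deposited table, of normalised values, was not. The 92 lines that name no gene held 3 counts and were left out. Symbols, positions and stop codons came from GENCODE release 44. Counts were tested with the quasi-likelihood test of edgeR 4.0.16 in R 4.3.3 (TMM, its low-count filter, 1 coefficient per group), fitting the 12 libraries of 6 h, the 18 of 24 h and the 12 control libraries apart, two-sided, with Benjamini-Hochberg adjustment over all genes and calls under 0.05. The SE is the log2 fold change divided by the square root of F. DESeq2 1.42.0, total-count scaling, no filter, a replicate block and leaving out each library were alternatives. Scripts were tested on simulated counts. The histone genes, gene lists and comparisons were chosen with earlier results of these data known. Named genes were all those called, the 10 most abundant, those without a count, and at most 6 called genes per other list, with SLBP, NPAT, H3-3B and H2AZ1 always given. The result of 1 gene of the replication-independent histone list is not reported here.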

Additional observations from a re-analysis of the deposited data

Results flagged for a closer look

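H3C10 was the histone gene whose libraries lay on opposite sides with sorafenib in I200c and M512. In I200c it was at 6.46, 5.88 and 7.44 TMM-scaled CPM with DMSO and at 2.66, 5.64 and 4.33 CPM with sorafenib, so that every library with sorafenib was below every library with DMSO, and the log2 ratio of the means was -0.65 (-0.6465). In M512 all 3 libraries with sorafenib were above all 3 with DMSO, at 5.18 to 7.74 against 1.94 to 2.55 CPM. The difference in I200c did not pass (edgeR adjusted p = 0.501), that in M512 did (adjusted p = 0.0373), and the difference between both, which come from separate fits and times, was not tested. Its values in the other 3 transfections overlapped between treatments in MC and M222 and were higher with sorafenib without overlap in IC.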

How the results depend on the processing

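No called histone gene changed direction under any alternative run. Of the results that answer a comparison, 286 values stayed near the reported one and 20 moved, and of the values for single called genes 46 kept their call and 42 lost it. Without the filter on low counts, 2 histone genes were called with sorafenib in IC, 7 in I200c, 1 in MC and 1 in M222, and 1 between MC_DMSO and IC_DMSO. DESeq2 called 4 with sorafenib in I200c, 1 in MC and 5 in M512, there with H2AC8 added (DESeq2 adjusted p = 0.0149), and 1 for M512 against MC in DMSO. With total counts in place of TMM, 2 were called in M512, and the median log2 fold change of all genes with sorafenib was then -0.12 in MC, -0.14 in M222 and -0.22 in M512. Without both replicates 3, chosen after the data had been seen, 1 was called in M512 and 3 in I200c. Leaving out 1 library at a time gave 0 to 4 calls in I200c and 1 to 5 in M512, and 0 in each of the other comparisons. With DMSO, the sum of all histone genes had a mean of 1108 CPM in I200c and 979 CPM in IC. Without H4C3 the means were 191 and 260 CPM, a log2 ratio of -0.443, so the direction turned. The log2 ratio of the summed 62 less abundant genes in M512 was 1.5 on TMM-scaled CPM. The causes were not tested. Genes under a few CPM are limited by depth.

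With the replicate number as a block, 4 histone genes were called with sorafenib in I200c and 3 in M512, and 0 in every other comparison. H1-4 was then called in I200c (edgeR adjusted p = 0.00536), and H2AC11 (adjusted p = 0.0561) and H3C4 in M512 (adjusted p = 0.0521) were not. The numbers were not taken to pair samples: correlations of same-numbered libraries ran from -0.0965 to 0.274 at 6 h and from -0.147 to 0.234 at 24 h, with all 3 over 0.1 in 0 of 6 and 1 of 15 pairs of groups.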
